A study of Caenorhabditis elegans with 8 samples.

Results

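The large subunit of the cytosolic ribosome is built from ribosomal RNA and a large set of proteins, and in *C. elegans* most of these proteins are encoded by genes named rpl. The genes described here are 42 rpl genes, chosen by a list of sequence names among the 25509 genes of the deposited table. No measured value entered the rule, though earlier results of these data were known when the genes were chosen. The table gives FPKM, that is, fragments scaled to the length of a feature and the size of its library, so levels can be compared between genes of different length. Whole wild-type worms of strain Bristol N2 were taken as mixed-stage embryos, as L1-L2 larvae, as L3-L4 larvae and as young adults, after culture in liquid. Eggs hatched without food at 20 °C, and the fed larvae were then taken after 6 to 20 hours for L1-L2, 28 to 42 hours for L3-L4 and 50 to 54 hours for young adults. The larval samples were pools, mixed by volume from the earlier stage, the later stage and the molt between them at 5, 5 and 2 parts. Every stage gave a total RNA sample and a sample of RNA immunoprecipitated with the J2 antibody against double-stranded RNA (dsRIP). No group carried a mutation, a transgene or a drug. The labels define 8 samples, 1 for each stage and molecule, and the table holds 3 numbered columns for each sample. The labels do not say whether these 3 columns came from separate cultures, so each sample counts as 1 replicate, and every SD given here is over its 3 columns.

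Ribosomal proteins are needed in near equal numbers by every ribosome, and their mRNAs are among the most abundant of growing cells. Assembly takes place mainly in the nucleolus, and the proteins then sit at places with known tasks. RPL-5 and RPL-11 join the subunit together with the 5S ribosomal RNA, others line the tunnel through which the new peptide leaves, and others face the small subunit or bind tRNA. These roles are known from the ribosomes of yeast and mammals. The rpl names used here are those of the WBcel235 annotation. RefSeq gives another name to some of them, such as rpl-13A for rpl-16. Most, not all, of the large subunit proteins are covered by the 42 genes. The acidic stalk proteins of the rla genes, the rpl-41 genes and several others are outside the list.

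The columns held 348064 to 914442 reads, and the summed columns of a sample held 1211042 to 2264595. Stage markers in total RNA followed the labels in part. The summed FPKM of 5 early embryo genes (end-1, end-3, tbx-37, tbx-38 and pes-10) was 88.3 in embryos and 0 to 3.99 in the later samples. The summed FPKM of 5 yolk genes of the vit family was 4180 in young adults and 2.65 to 10.5 before, and that of col-19, an adult cuticle collagen, was 818 in young adults and at most 2.80 before. A list of 5 sperm genes (msp-3, msp-10, msp-19, msp-31 and spe-9), named for late larvae, summed to 26.5 FPKM in L3-L4 and to 636 in young adults. The early larval pair lin-14 and lin-28 summed to 150 in embryos, 130 in L1-L2, 46.1 in L3-L4 and 37.7 in young adults. Neither list was thus highest at the stage it is named for. The 6 germline genes (glh-1, pgl-1, cgh-1, nos-2, puf-5 and oma-1) summed to 298 FPKM in embryos, 118 in L1-L2, 327 in L3-L4 and 1182 in young adults.

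Transcripts of the large subunit genes took a small part of the reads in embryos and several times more in larvae. In total RNA the 42 genes held 0.981% ± 0.279 of the reads in embryos (SD, 3 columns), 4.04% ± 0.725 in L1-L2, 4.63% ± 0.787 in L3-L4 and 3.29% ± 0.585 in young adults. Their summed FPKM was 15896 ± 3668, 64765 ± 10185, 72973 ± 8576 and 51895 ± 8304 in the same order. The shares of the single embryo columns lay below those of every later column, and the shares of the L1-L2, L3-L4 and young adult columns overlapped. In dsRIP RNA the share was 1.33% ± 0.232, 5.29% ± 0.795, 5.28% ± 0.978 and 3.87% ± 0.554. The dsRIP mean was above the total RNA mean at each of the 4 stages, and the dsRIP share was the higher one in 12 of 12 pairs of same-numbered columns. Without regard to the numbers, the columns of both molecules overlapped at each stage. In these whole-animal samples fewer cells that use a gene and less of its RNA in each cell cannot be told apart.

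**Figure D1:**
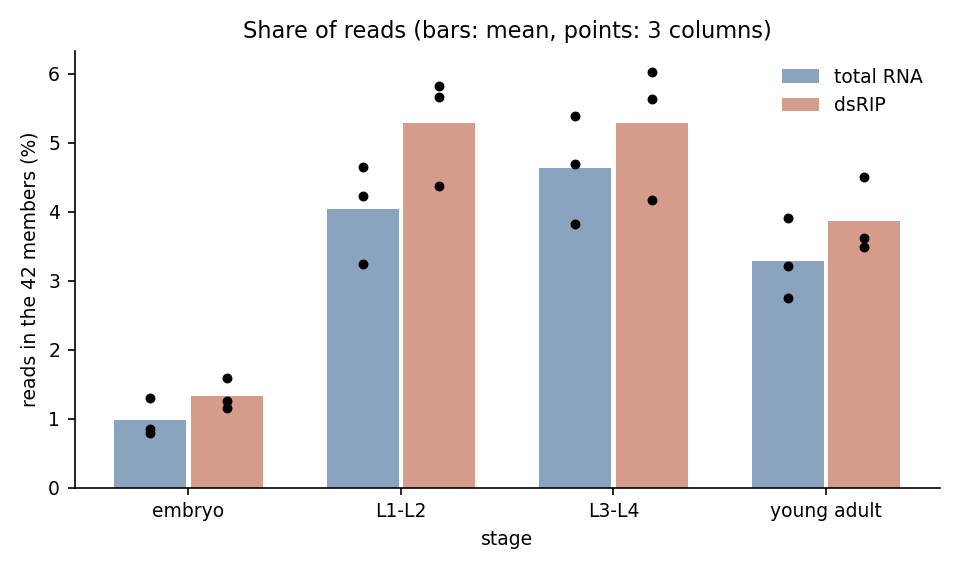
The vertical axis gives the percentage of reads in the 42 large subunit genes at each stage, for total RNA and dsRIP; bars are means and points are the 3 columns. The embryo bars, 0.981% and 1.33%, lie below all later bars, which range from 3.29% to 5.29%.

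Nearly all of the genes were abundant at every stage. The median gene had 308 FPKM in embryos, 1300 in L1-L2, 1550 in L3-L4 and 1129 in young adults, and the median of all tested genes at these stages was 6.53 to 8.81. Among all genes of the table, 35 of the 42 stood among the 500 with the highest FPKM in embryos, and 40, 42 and 40 did so at the later stages. The most abundant gene was rpl-39, which codes for a very small protein of the exit tunnel. It had 1076 ± 135 FPKM in embryos, 5232 ± 1029 in L1-L2, 5237 ± 1864 in L3-L4 and 4244 ± 602 in young adults. Next came rpl-10, whose protein sits beside the tRNA sites and joins the subunit late, with 905 ± 99.3, 3242 ± 181, 3375 ± 182 and 3156 ± 282 FPKM. The third was rpl-36, with 891 ± 248, 3041 ± 1222, 4130 ± 1271 and 2023 ± 404. For rpl-21 the means were 782 ± 212, 3081 ± 538, 2960 ± 793 and 1945 ± 410, and for rpl-27 they were 530 ± 87.3, 2441 ± 476, 3291 ± 657 and 2201 ± 436. Of the 41 neighbouring pairs in the order of mean FPKM, 31 had overlapping columns at all 4 stages. At the low end stood rpl-37, rpl-25.1 and rpl-11.1, each of which has a paralogue in the genome. The level of rpl-37 was 77.2 ± 22 FPKM in embryos, 174 ± 49.0 in L1-L2, 288 ± 31.5 in L3-L4 and 197 ± 43 in young adults. The distance between the highest and the lowest of the 42 was 71.0-fold in embryos and 18.2-fold in L3-L4.

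**Figure D2:**
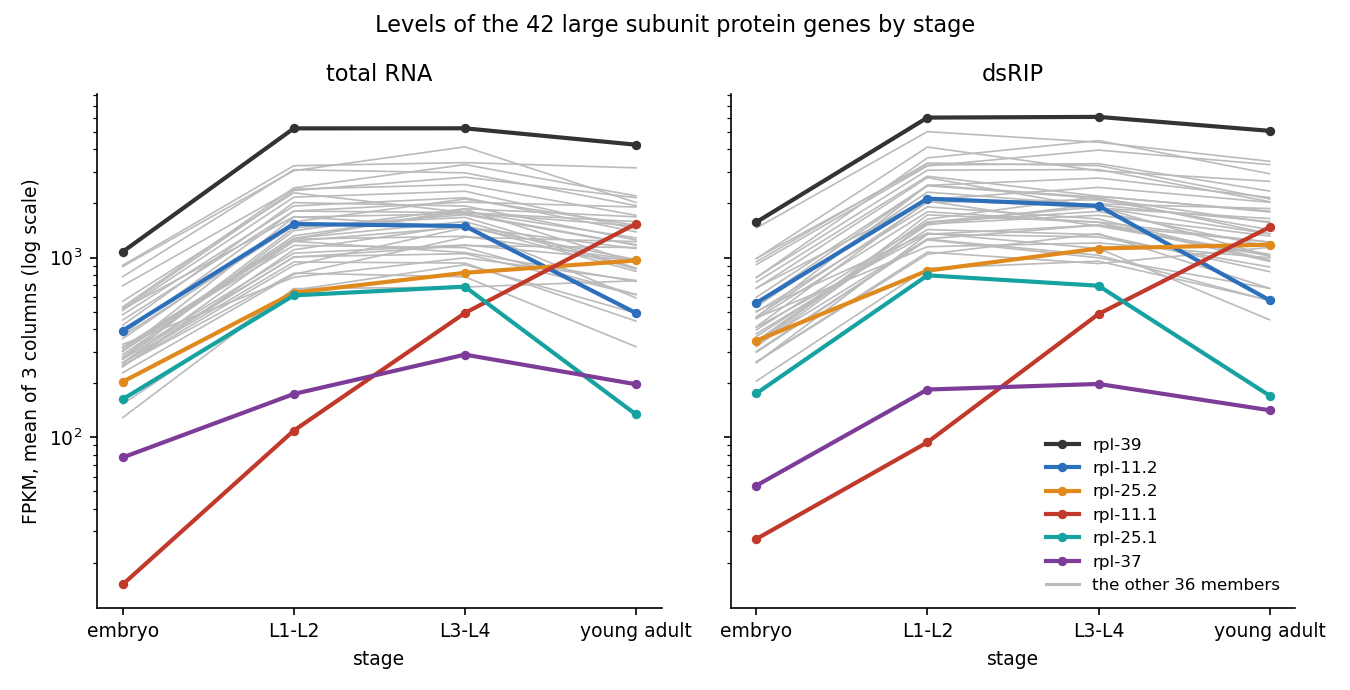
Each line is 1 gene, with FPKM as the mean of 3 columns on a log axis, by stage, for total RNA (left) and dsRIP (right); 6 genes are coloured and the other 36 are grey. Grey lines are higher in L1-L2 than in embryos, while rpl-11.1 is higher at each later stage and rpl-11.2 and rpl-25.1 are lower in young adults than in L3-L4.

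All 42 genes had more transcript in L1-L2 larvae than in embryos. Each was at least 1.5-fold higher in total RNA, where 35.2% of all 20628 tested features were, and 0 were lower (34.4% of all features). The differences were alike in size: the median log2 difference was 2.00, the lowest 1.16 and the highest 2.76, while the median of all genes was 0. With 1 sample at each stage a step between stages has no replicate check and no p-value. For 41 of the genes all 3 L1-L2 columns were above all 3 embryo columns, which held for 21.0% of all features. The exception was rpl-25.1, by a narrow margin: its highest embryo column had 333 FPKM and its lowest L1-L2 column 332. The largest differences were those of rpl-11.1 (2.76), rpl-15 (2.48) and rpl-9 (2.39). The smallest were those of rpl-37 (1.16), of rpl-12, a protein at the base of the stalk that recruits translation factors (1.24), and of rpl-25.2 (1.64). In dsRIP RNA the same step gave 42 of 42 at least 1.5-fold higher (33.3% of all features), with a median log2 difference of 1.99 and a range of 1.29 to 2.44.

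From L1-L2 to L3-L4 the columns of most large subunit genes overlapped. In total RNA 4 of the 42 were at least 1.5-fold higher (16.7% of all features), namely rpl-11.1, rpl-37, rpl-24.1 and rpl-14. None was at least 1.5-fold lower (28.6% of all features). The median log2 difference was 0.16 and the range was -0.36 to 2.16. For 39 of the genes the columns overlapped, and for the other 3 all L3-L4 columns were the higher ones (6.23% of all features). Apart from rpl-11.1 (2.16), the highest differences were those of rpl-37 (0.72) and rpl-24.1 (0.70), the latter with columns that overlapped. The lowest were those of rpl-29 (-0.36), rpl-31 (-0.21) and rpl-43 (-0.19). In dsRIP RNA 1 gene, rpl-11.1, was at least 1.5-fold higher (17.9% of all features) and 0 were lower (28.8%), with a median log2 difference of -0.02. Without overlap of dsRIP columns 1 gene was higher (5.92% of all features) and 1, rpl-10, lower (10.3%). Scaling all samples to equal medians moves the median of all genes in this step from -0.04 to 0.24 in total RNA and from 0 to 0.25 in dsRIP; 15 of the 42 then pass 1.5-fold in total RNA. Without column 3 the total RNA count was 10.

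From L3-L4 to young adults most of the genes had a lower mean, to differing extents. In total RNA 39 of the 42 had a lower mean in young adults, 18 of them by at least 1.5-fold (30.6% of all features), and the median log2 difference was -0.56. For 9 of the genes all young adult columns were below all L3-L4 columns, against 13.4% of all features. The lowest differences were those of rpl-25.1 (-2.35), rpl-11.2 (-1.61) and rpl-24.1 (-1.30). Only rpl-11.1 was at least 1.5-fold higher (1.65; 26.5% of all features). Of the others, rpl-25.2 (0.23) and rpl-28 (0.12) had a higher mean, each with overlapping columns. The dsRIP samples gave 15 genes at least 1.5-fold lower (29.1% of all features) and 1 higher (28.8%), again rpl-11.1. The total RNA count of lower genes was 11 without column 3 and the dsRIP count 9.

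Across the whole interval 39 of the 42 genes were at least 1.5-fold higher in young adults than in embryos (30.4% of all features), and 0 were lower (38%). The median log2 difference was 1.63. For 37 of the genes all young adult columns were above all embryo columns (17.8% of all features). The 3 genes under 1.5-fold were rpl-25.1 (-0.28), rpl-11.2 (0.32) and rpl-35 (0.34). Their columns overlapped between both stages, as did those of rpl-30 and rpl-24.1, which are among the 39. For rpl-35, a protein at the rim of the exit tunnel, the level was 251 ± 47.5 FPKM in embryos, 819 ± 173 in L1-L2, 781 ± 355 in L3-L4 and 319 ± 237 in young adults. The largest differences were those of rpl-11.1 (6.58), rpl-3 (2.63) and rpl-28 (2.52). RPL-3 lies next to the peptidyl transferase site, where peptide bonds are made. The rpl-3 columns ran from 192 to 363 FPKM in embryos, 1219 to 1532 in L1-L2, 1660 to 2287 in L3-L4 and 1311 to 1973 in young adults. The embryo columns of rpl-3 were thus below all later ones, and young adult and L3-L4 columns overlapped. The dsRIP samples gave 39 genes higher (30.8% of all features) and 0 lower (38%), with a median of 1.41.

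The 42 genes were then divided by the place of their proteins in the subunit. The median log2 difference from embryo to L1-L2 in total RNA was 2.00 for the 3 genes of the 5S complex, 2.12 for the 3 at the tRNA and peptidyl transferase sites, 1.92 for the 9 at the exit tunnel and its rim, 1.86 for the 4 facing the small subunit and 1.76 for the 2 of the stalks. For the 21 genes outside these groups it was 2.09. From L3-L4 to young adults the medians were -0.98, -0.15, -0.60, -0.73 and -0.33 in the same order, and -0.57 for the 21. The genes of the tRNA and peptidyl transferase sites thus had the median nearest to 0, from 3 genes with values of -0.10 for rpl-10, -0.15 for rpl-3 and -0.48 for rpl-2. The median of the 5S complex was the value of rpl-5, between -1.61 for rpl-11.2 and 1.65 for rpl-11.1. The summed FPKM of rpl-11.1 and rpl-11.2 was 1988 in L3-L4 and 2033 in young adults.

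Of the pair rpl-11.1 and rpl-11.2, the first was the minor copy in embryos and larvae and the major copy in young adults. Both encode the protein that, with RPL-5, carries the 5S RNA into the subunit. The gene rpl-11.1 (T22F3.4) lies on chromosome V at 3585312 to 3586063, and rpl-11.2 (F07D10.1) on chromosome X at 2241748 to 2242612 (ce10). In total RNA the columns of rpl-11.1 were 15.7, 15.5 and 14.4 FPKM in embryos, 82.1, 142 and 103 in L1-L2, 649, 347 and 478 in L3-L4, and 1826, 1550 and 1251 in young adults. Those of rpl-11.2 were 315, 303 and 558 in embryos, 1198, 1533 and 1881 in L1-L2, 1054, 1976 and 1461 in L3-L4, and 291, 815 and 368 in young adults. All rpl-11.1 columns were below all rpl-11.2 columns in embryos, L1-L2 and L3-L4, and all were above them in young adults. The share of rpl-11.1 in the summed FPKM of the pair was 4.04% ± 1.33 in embryos, 6.69% ± 1.67 in L1-L2, 25.9% ± 11.6 in L3-L4 and 76.4% ± 10.4 in young adults. The mean of rpl-11.1 was 102-fold higher in young adults than in embryos, where it rested on 20 reads in all 3 columns together (95% exact Poisson interval 12.2 to 30.9, counting error only). Meanwhile the sum of both was 407 FPKM in embryos, 1646 in L1-L2, 1988 in L3-L4 and 2033 in young adults. The dsRIP samples gave shares of rpl-11.1 of 5.24% ± 2.83, 4.11% ± 1.01, 21.7% ± 8.13 and 73.2% ± 10.4.

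The pair rpl-25.1 and rpl-25.2, which encode a protein at the mouth of the exit tunnel, likewise consists of a copy on chromosome X and a copy on an autosome. The gene rpl-25.1 (F55D10.2) lies at 4715147 to 4715772 of chromosome X, and rpl-25.2 (F52B5.6) at 8329054 to 8329642 of chromosome I. The columns of rpl-25.1 in total RNA were 91.9, 63.4 and 333 FPKM in embryos, 332, 565 and 951 in L1-L2, 159, 1336 and 571 in L3-L4, and 59.6, 245 and 97.3 in young adults. The columns of rpl-25.2 were 146, 197 and 267 in embryos, 411, 926 and 574 in L1-L2, 805, 1128 and 534 in L3-L4, and 855, 1397 and 638 in young adults. The 2 genes overlapped up to L3-L4, and in young adults all columns of rpl-25.2 were above all columns of rpl-25.1. The share of rpl-25.2 in the pair was 60.5% ± 15.6 in embryos, 51.7% ± 12.6 in L1-L2, 59.2% ± 21.1 in L3-L4 and 88.4% ± 4.44 in young adults. In dsRIP RNA the young adult share was 88.2% ± 4.90. The L3-L4 mean of rpl-25.1 rests on single columns that differ 8.42-fold.

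**Figure D3:**
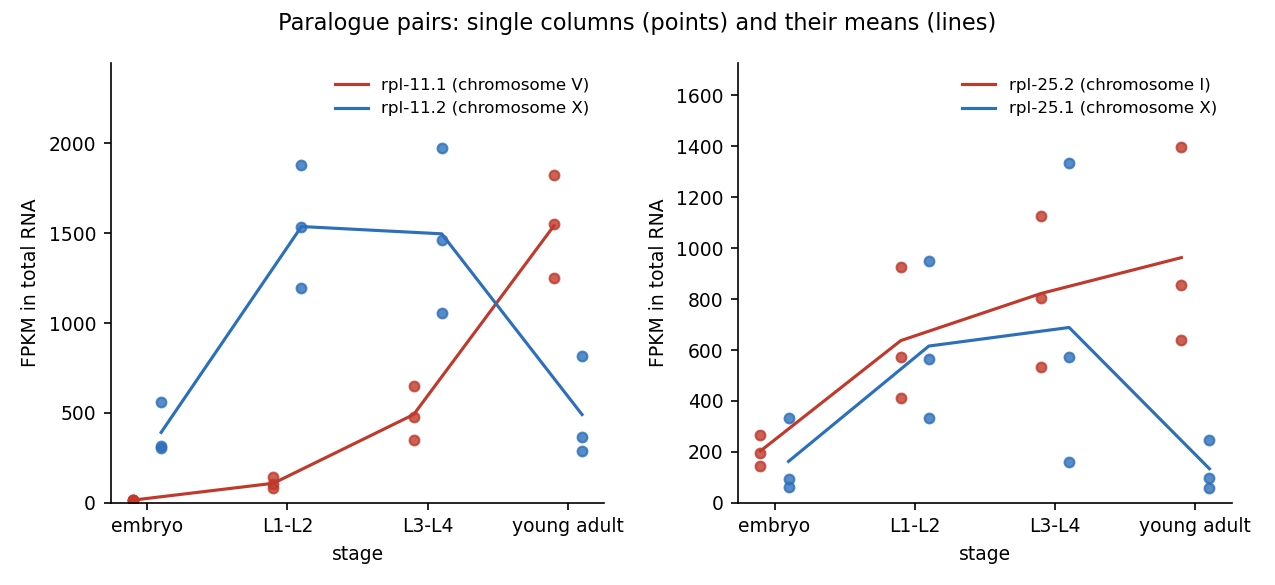
FPKM in total RNA by stage for the pairs rpl-11.1 with rpl-11.2 (left) and rpl-25.2 with rpl-25.1 (right); points are the 3 columns and lines their means. The copy on chromosome X is the lower of each pair in young adults, with 491 against 1542 FPKM and 134 against 963.

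These were the only 2 of the 42 genes on chromosome X. Among all 2223 tested protein-coding genes of chromosome X the median log2 difference from L3-L4 to young adults was -0.49, and 45.3% were at least 1.5-fold lower. On the autosomes the median ran from -0.21 on chromosome V to 0.25 on chromosome I, and 21.4% to 37.5% were lower. The X chromosome is known to be largely silent in much of the germline, and rpl-11.1 is known for a role there. The germline genes named above summed to 3.62 times as much FPKM in young adults as in L3-L4, and their part in the shares of the pairs was not tested. How reads that match both copies of a pair were assigned is not given in the sources used here, so the split between paralogues is uncertain to that extent.

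In the other gene pairs compared, the same gene had the higher level at every stage. The protein of rpl-24.1 bridges to the small subunit. Whether that of rpl-24.2, a gene of similar name outside the list, is part of the finished subunit was not examined. In the summed FPKM of both, the share of rpl-24.1 was 82.6% ± 4.15, 89.3% ± 5.60, 93.8% ± 3.19 and 82.4% ± 10.4 from embryo to young adult. The columns of rpl-24.1 itself were far apart, at 953, 2413 and 1038 FPKM in L3-L4 and at 266, 1075 and 448 in young adults. The gene rpl-37 (C54C6.1) was the minor copy beside W01D2.1, which RefSeq names rpl-37.1. Its share of the pair was 16.2% ± 0.389, 8.34% ± 1.79, 11.7% ± 1.49 and 10.6% ± 0.765. The low rank of rpl-37 among the 42 is therefore that of 1 copy: the pair summed to 480 FPKM in embryos, 2116 in L1-L2, 2476 in L3-L4 and 1849 in young adults.

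In the comparison of dsRIP with total RNA most large subunit genes had a ratio above 1. The ratios were fitted over the 4 stages with limma, with stage as a block, across all 20628 features, so the stages serve as replicates of the molecule. Of the 42 genes, 10 were higher in dsRIP at an adjusted p under 0.05, which is 23.8% of them against 2.11% of all features. None was lower, against 2.12% of all features. Under a filter of FPKM 50 in at least 2 of 8 samples, 18 of the 42 were called higher, against 8.56% of 4286 features. At an unadjusted p under 0.05 the counts were 23 higher and 1 lower. The share of all features at an unadjusted p is not given here or below, so such counts have no background. The log2 ratio was above 0 for 37 genes, or 88.1%, against 42.2% of all features, and 28 genes were above 0 at each stage (10.4% of all features). The median log2 ratio of the 42 was 0.29, and that of all tested genes -0.12. The highest ratio was 1.07. Without any 1 of the 4 stage pairs the number called was 0, with 17 to 23 still higher at an unadjusted p under 0.05. In each of those 4 fits 0 of all 20628 features were called in either direction, so the count says nothing of the 42 genes in particular. It was also 0 without column 1 or column 3, where 19 and 44 of all features were called higher, and 6 without column 2, where 147 were. Scaling to equal medians moved the median of all genes to 0.04 and that of the 42 to 0.45, and 17 were then called, against 3.99% of all features.

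The strongest ratio was that of rpl-23 (B0336.10), a protein on the face toward the small subunit. In total RNA its columns were 171, 342 and 303 FPKM in embryos, 637, 1587 and 786 in L1-L2, 1638, 931 and 928 in L3-L4, and 1156, 1588 and 665 in young adults. In dsRIP RNA they were 469, 1022 and 540, then 1550, 3064 and 1701, then 3338, 1975 and 2058, and finally 1915, 1938 and 2238. All dsRIP columns were above all total RNA columns in embryos, L3-L4 and young adults, and in L1-L2 they overlapped. The log2 ratio was 1.07 ± 0.10 (SE; limma adjusted p = 0.0183). For rpl-22, which encodes an RNA-binding protein of the subunit surface, the means in total RNA were 449 ± 14.6, 1813 ± 436, 2035 ± 563 and 1910 ± 183 FPKM from embryo to young adult. In dsRIP RNA they were 913 ± 181, 3233 ± 452, 3961 ± 1168 and 3288 ± 529, with every dsRIP column above every total RNA column within its stage. The log2 ratio of rpl-22 was 0.90 ± 0.09 (limma adjusted p = 0.0213). For rpl-29 the means were 571 ± 222, 2291 ± 224, 1779 ± 456 and 1584 ± 128 FPKM in total RNA and 986 ± 152, 4119 ± 221, 3040 ± 1069 and 2655 ± 492 in dsRIP. Within a stage its columns overlapped only in L3-L4, and the log2 ratio was 0.79 ± 0.08 (limma adjusted p = 0.0223). Next in order were rpl-14 with a log2 ratio of 0.70 ± 0.09 (limma adjusted p = 0.0274) and rpl-35 with 0.69 ± 0.11 (limma adjusted p = 0.0417).

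The other 5 genes called higher were rpl-28, rpl-32, rpl-26, rpl-31 and rpl-16, with log2 ratios from 0.50 to 0.69. By place in the subunit, 3 of the 9 genes of the exit tunnel and its rim were called (rpl-26, rpl-31 and rpl-35), with a median log2 ratio of 0.30 for the group. Of the 4 facing the small subunit 1 was called, rpl-23, with a group median of 0.40. Of the 3 genes of the 5S complex, the 3 of the tRNA and peptidyl transferase sites and the 2 of the stalks, 0 were called, with medians of 0.20, 0.22 and 0.35. The other 6 called genes were among the 21 outside these groups, whose median was 0.28. Single values in the groups with no call were 0.20 ± 0.09 for rpl-5 (limma adjusted p = 0.26), 0.45 ± 0.14 for rpl-10 (limma adjusted p = 0.145) and 0.22 ± 0.08 for rpl-3 (limma adjusted p = 0.19).

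At the other end 5 of the 42 genes had a log2 ratio below 0, and none of them passed the threshold. The lowest was rpl-37, with columns of 54.2, 98 and 79.4 FPKM in total RNA and 32.8, 71.9 and 56.8 in dsRIP in embryos. Its L1-L2 columns were 161, 228 and 133 in total RNA and 140, 249 and 164 in dsRIP, those of L3-L4 were 292, 255 and 318 against 166, 288 and 140, and those of young adults 243, 157 and 192 against 126, 182 and 116. The dsRIP mean was lower in embryos, L3-L4 and young adults and higher in L1-L2, and the columns overlapped at every stage. The log2 ratio was -0.36 ± 0.13 (limma adjusted p = 0.178). The other 4 were rpl-21 (-0.19 ± 0.10), rpl-6 (-0.15 ± 0.08), rpl-2 (-0.07 ± 0.09) and rpl-36 (-0.01 ± 0.12), with limma adjusted p of 0.332 to 0.97. Of these, rpl-21 and rpl-6 had a lower mean in dsRIP at each stage. Where the samples were scaled to equal medians, rpl-6, rpl-2 and rpl-36 had ratios above 0.

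**Figure D4:**
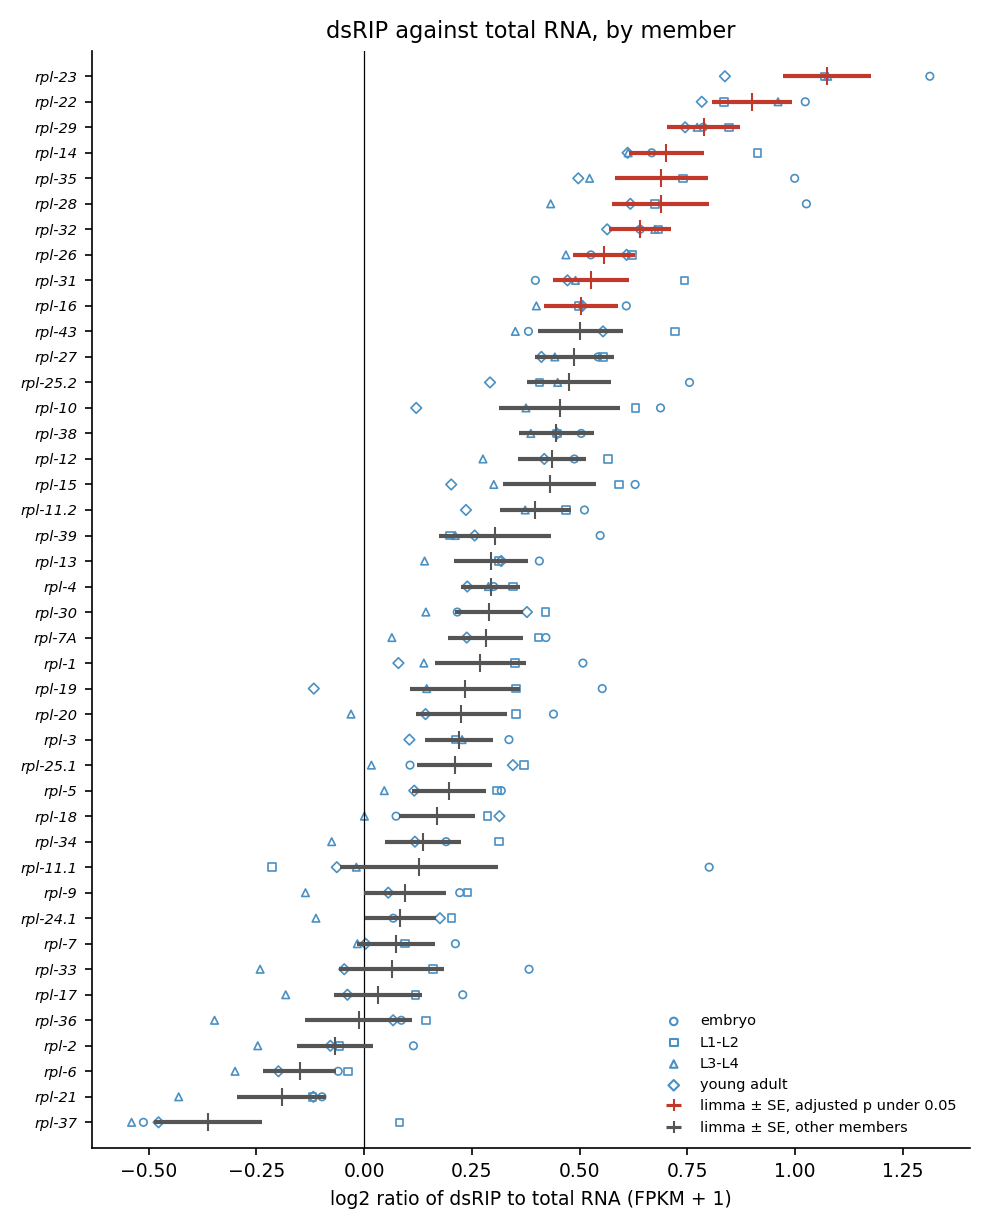
Log2 ratio of dsRIP to total RNA for each gene, sorted by the limma estimate; vertical marks with bars are the estimate ± SE, red for an adjusted p under 0.05, and open symbols are the 4 stages. The 10 red genes lie between 0.50 and 1.07, and 5 genes have an estimate below 0.

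By the median, the excess in dsRIP was present at each stage and differed in size. The median log2 ratio of the 42 genes was 0.43 in embryos, 0.36 in L1-L2, 0.18 in L3-L4 and 0.24 in young adults, with 39, 38, 29 and 34 genes above 0. The corresponding medians of all genes were 0, -0.13, -0.10 and 0. Taken by column number, the medians were 0.57, 0.53 and 0.28 in embryos, 0.45, 0.39 and 0.33 in L1-L2, 0.10, 0.24 and 0.34 in L3-L4, and 0.30, 0.22 and 0.26 in young adults. These ranges overlap between embryos and the other stages, and the difference between stages was not tested. At least 1.5-fold higher in dsRIP were 12 genes in embryos (18.7% of all features), 12 in L1-L2 (18.4%), 5 in L3-L4 (15%) and 6 in young adults (15.5%). As shares of the 42, the counts in embryos and L1-L2 were above those of all features. The counts in L3-L4 and young adults were below them. At least 1.5-fold lower were 0 at each stage, against 19.1%, 23.9%, 20.2% and 17.5% of all features in the same order. The median FPKM of all tested genes was far below that of the 42 at each stage, and no background of equal abundance was made.

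Size and abundance of the genes went only weakly with the ratio. Over the 42 genes, which share the same libraries, the log2 ratio had a Pearson r of -0.22 and a Spearman rho of -0.29 with exonic length, and of 0.05 and -0.05 with log2 mean FPKM in total RNA. The 10 genes called higher had a median exonic length of 514 bases (316 to 718), and the other 32 had 710.5 bases (247 to 1295).

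Genes of the small subunit had stage steps of similar size to those of the large subunit. The 31 rps genes in the table took 1.0%, 3.75%, 4.00% and 2.90% of total RNA reads from embryo to young adult. Their median log2 differences were 1.96 from embryo to L1-L2, 0.08 to L3-L4 and -0.48 to young adults, and 31, 0 and 0 of them were at least 1.5-fold higher and 0, 0 and 10 lower. Of all features, 35.2%, 16.7% and 26.5% were higher in these steps and 34.4%, 28.6% and 30.6% lower. In dsRIP 8 of 31 were called higher (2.11% of all features) and 0 lower (2.12%), with a median log2 ratio of 0.38. A further list of 10 genes named with the large subunit but outside the 42, among them rla-0, rla-1 and rla-2 of the stalk, had medians of 1.86, -0.02 and -0.07. From embryo to L1-L2, 8 of these were at least 1.5-fold higher and 1 lower. The lower one was rpl-41.1, with 1289 FPKM in embryos and 388 in L1-L2. The more abundant rpl-41.2 of the same list went the other way, with 2700 and 7701 FPKM. In total RNA rpl-42 had 0 FPKM before young adults. The median log2 dsRIP ratio of the 10 was 0.34, with 2 called higher and 0 lower.

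Other parts of the translation machinery had smaller medians than the large subunit genes from embryo to L1-L2. For 33 translation factor genes of the eef, eif and iff families the medians were 0.38, 0.16 and -0.02, with 13 at least 1.5-fold higher and 2 lower from embryo to L1-L2. For 24 genes of ribosome biogenesis, such as fib-1 for the nucleolar methyltransferase fibrillarin, they were 0.50, 0.01 and 0.20, with 8 higher and 0 lower in the first step. For 40 mrpl genes, which encode large subunit proteins of the mitochondrial ribosome, they were 0.51, 0.19 and -0.04, with 16 higher and 2 lower. In this first step 35.2% of all features were higher and 34.4% lower. The translation factors were mixed in it. Each eef gene was at least 1.5-fold higher, such as eef-1G with 146 FPKM in embryos and 603 in L1-L2, and eef-2 with 665 and 1911. The 2 lower ones were eif-4A3, with 337 and 128, and iff-1, with 174 and 58.3. In dsRIP the medians were 0.11 for the translation factors (1 called higher, 0 lower), -0.16 for biogenesis (0 higher, 1 lower) and -0.22 for the mrpl genes (1 higher, 4 lower). Of all features, 2.11% were called higher and 2.12% lower. Differences between the lists were not tested.

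**Figure D5:**
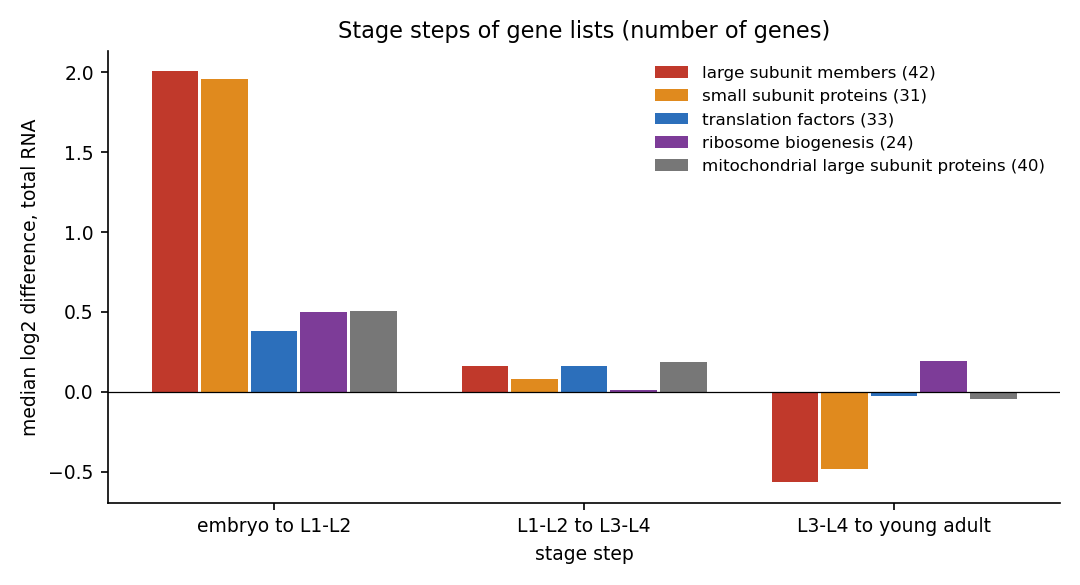
Bars give the median log2 difference in total RNA for each stage step and gene list, with the number of tested genes in parentheses. The first step is 2.00 for the large subunit genes and 1.96 for the small subunit genes, and 0.38 to 0.51 for the other 3 lists.

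No large subunit gene overlapped an editing-enriched region. Such a region (EER) is a stretch of genome that the study listed for clustered editing of adenosines by ADAR enzymes, which act on dsRNA. Of the 1523 listed regions, 0 overlapped any of the 42 gene spans, while 814 of 15397 tested protein-coding genes, or 5.29%, overlapped at least 1. Of the 42, 7 lay within 10 kb of a region, against 19.9% of these protein-coding genes. The nearest was rpl-17 on chromosome I, 1241 bases from a region at 1154606 to 1155338, and its log2 ratio was 0.03 ± 0.10. The highest ratio, that of rpl-23, belonged to a gene 22208 bases from the nearest region.

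Introns of ribosomal protein genes are a known home of small nucleolar RNAs (snoRNAs), which guide chemical modification of ribosomal RNA. Here 7 of the 42 genes held 11 annotated snoRNAs inside their spans: rpl-4, rpl-6, rpl-7, rpl-7A, rpl-15, rpl-24.1 and rpl-26. From embryo to L1-L2 the median log2 difference of these snoRNAs in total RNA was 2.10, with 10 of 11 above 0. The share of all features above 0 in this step is not given here. Several of the snoRNAs had very few reads. B0041.9 had 0 in embryos and 1 in L1-L2, and Y24D9A.10 had 0 in both. In embryos R151.12 had 2 reads, and R151.13 and K11H12.13 had 3 each. The best covered was Y24D9A.9 in rpl-7A, with 2799 ± 564 FPKM in embryos, 11471 ± 3245 in L1-L2, 9531 ± 3598 in L3-L4 and 10460 ± 3685 in young adults. The median log2 dsRIP ratio of the 11 snoRNAs was -1.19, against 0.28 for the 7 hosts. Of the 11, 8 were below 0, and 42.2% of all features were above 0. The 2 called lower (2.12% of all features) were D1007.20 in rpl-24.1 and F28C6.11 in rpl-26, and 0 were called higher. D1007.20 had -3.28 ± 0.42 (limma adjusted p = 0.0294), from 2441 reads in total RNA and 155 in dsRIP. F28C6.11 had -3.73 ± 0.58 (limma adjusted p = 0.0413), from 250 reads in total RNA and only 9 in dsRIP. The host rpl-26 was called higher in the same fit, at 0.56 ± 0.07 (limma adjusted p = 0.0289). Over all 135 tested snoRNAs the median log2 ratio was -0.62.

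Where gene spans overlap, the same reads may have been counted for both genes. Of the 42, 12 overlapped another protein-coding gene. The closest link was that of rpl-16 with lias-1: rpl-16 had 8855 reads and lias-1 had 9196 in total RNA, and their log2 dsRIP ratios were 0.50 ± 0.09 (limma adjusted p = 0.0493) and 0.49 ± 0.07 (limma adjusted p = 0.0318). The partners of rpl-35 and rpl-32 had far fewer reads than these genes and ratios on the other side of 0, with -0.55 ± 0.14 for tag-307 and -0.59 ± 0.14 for chmp-7. The strand setting of the counting is not given in the sources used here.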

How the data were processed

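RNA from whole Bristol N2 worms at 4 stages, as total RNA and as J2 immunoprecipitate, was sequenced from fragmented RNA with a stranded kit, per the labels' protocols. The submitters' processing notes name Novoalign, SAMtools 0.1.19, bedtools 2.19.0 and the genome build ce10. The deposited table gives FPKM computed by the authors for 27050 features, 25509 genes and 1541 EERs, in 24 columns, and 0 columns were left unmapped. The deposited region lists give each EER a position and a score, and only the positions were used. Genes and EERs stand as separate features, so reads may count for both. Gene starts count from 0 in the table and are printed from 1.

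The WBcel235 annotation gave symbols for 25092 genes through their sequence names. The 42 members and the lists of neighbouring genes and markers were chosen with earlier results of these data known; rpl-42, Y37E3.8 and W01D2.1 were added to the neighbouring lists after the files were read. Whole reads were recovered from the steps between FPKM values (100% within 0.02 of a whole number) and give the reads and depths printed here, with errors from counting only.

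The 3 columns of a sample were averaged. A feature was tested when 2 or more of the 8 samples reached an FPKM of 1, which left 20628 features, all 42 members among them. For dsRIP against total RNA, limma 3.58.1 (R 4.3.3) was fitted to log2(FPKM + 1); the model held a term for each stage, the variance prior followed a trend, and p-values were adjusted over all features by Benjamini-Hochberg at 0.05. A fold change on this scale understates that of genes with low FPKM. The fit was tested on simulated data. Stage steps were counted at 1.5-fold without a test. No share of all features was matched to the 42 genes in abundance. Since nothing says the stages' samples came from separate cultures, p-values measure the spread between these samples. Named genes are the 5 most and 3 least abundant, the 5 highest and 5 lowest dsRIP ratios, the 3 largest stage differences each way, the paralogues and 4 examples of role groups. The other called genes, snoRNAs and overlapping genes were named after their values were seen. Alternatives changed the pseudocount, filter, scaling, block, trend, fold and columns used. A promoter search and a comparison of protein sequences, planned beforehand, were not run.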

Additional observations from a re-analysis of the deposited data

Results flagged for a closer look

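For 6 of the 42 genes the dsRIP to total RNA ratio was above 1 in all 3 column pairs of one stage and below 1 in all 3 of another. These differences between stages were not tested. The share of all features that meets the same rule is not given here, so the count of 6 has no background. In 3 of the 6 genes, rpl-17, rpl-9 and rpl-33, embryos and L1-L2 were above and L3-L4 below. The log2 ratio of rpl-17 was 0.23 in embryos and 0.12 in L1-L2, and -0.18 in L3-L4. That of rpl-9 was 0.22 in embryos and 0.24 in L1-L2, and -0.14 in L3-L4. That of rpl-33 was 0.38 in embryos and 0.16 in L1-L2, and -0.24 in L3-L4. For rpl-36 it was 0.14 in L1-L2 and 0.067 in young adults, and -0.35 in L3-L4. For rpl-2 it was 0.11 in embryos, -0.057 in L1-L2 and -0.25 in L3-L4. For rpl-11.1 it was 0.80 in embryos, from 22 dsRIP and 20 total RNA reads, and -0.21 in L1-L2.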

How the results depend on the processing

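The number of large subunit genes called higher in dsRIP was 10, with 435 of all features, and depended on the settings, as did the latter. It was 6 with no filter (272 of all features), 18 with a filter of FPKM 50 (367 of 4286), 17 with medians set equal (823), and 0 without the stage block (13) or without the trend (106), where 0 and 18 members were higher at an unadjusted p under 0.05. It was 0 to 6 with a stage pair or a column left out. Over single columns with column number as a replicate block it was 26 (1016 of all features), and with voom on summed reads, added after seeing the data, 27 higher (1594) and 1 lower. The 10 genes were among those called under the filter of 50, equal medians, the replicate block and voom. Single columns with only stage as a block called 10 and shared 7 of them, quantile normalisation called 12 and shared 9, each other pseudocount shared 9, and no filter shared 6. Same-numbered total RNA and dsRIP columns deviated together in embryos and larvae (correlation 0.12 to 0.31) and not throughout in young adults (-0.02 to 0.30). Between columns of different numbers the correlation was at most 0.02 in embryos, 0.021 in L1-L2, -0.055 in L3-L4 and 0.184 in young adults. The main fit did not take the numbers to pair the columns. Values by same-numbered columns are given as description only. From L1-L2 to L3-L4, 4 genes passed 1.5-fold upward in total RNA, and 15 did with equal medians, 2 with quantile normalisation, 1 at 2-fold and 5 to 10 with a column left out, with 0 to 1 lower. The dsRIP count of 1 was 5 with equal medians and 1 to 5 with a column left out, and 2 were lower with quantile normalisation and 0 to 4 with a column left out. From L3-L4 to young adults, 18 were lower in total RNA, 6 at 2-fold and 11 to 25 with a column left out. In dsRIP 15 were lower, 8 with quantile normalisation, 4 at 2-fold and 9 to 22 with a column left out. From embryo to young adult 0 were lower, and 0 to 1 in total RNA and 0 to 3 in dsRIP with a column left out. From embryo to L1-L2 all 42 passed 1.5-fold with each pseudocount, scaling, fold and column left out. Signs turned for rpl-36 (0.15 with equal medians, 0.22 with quantile normalisation, 0.10 without the L3-L4 pair, 0.007 without column 2), rpl-6 (0.010 with equal medians), rpl-2 (0.093 with equal medians, 0.016 with quantile normalisation) and rpl-11.1 (-0.10 without embryos, -0.043 with voom). With a stage pair or column left out, rpl-36 ran from -0.065 to 0.10 and rpl-11.1 from -0.10 to 0.24. The causes were not tested. The reads limit rpl-11.1 in embryos, at 20 in total RNA.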
